A study of Homo sapiens with 6 samples.

Results

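The 10 immediate early genes studied here lie outside the AP-1 family and were read in the colorectal cancer line HCT116 with and without CSE: EGR1, EGR2, EGR3, IER2, IER3, NR4A1, KLF2, KLF4, KLF6 and DUSP1. They were taken from a fixed list of symbols matched to Ensembl identifiers, and all 10 were found among the 20263 genes of the table. The table holds poly(A) RNA-seq values of 6 samples, 3 labelled WT and 3 labelled CSE treated, all of the same epithelial cell line. The labels do not spell out CSE; since smoking stands in the series title, it is read here as cigarette smoke extract, the water-soluble part of smoke. For dose, exposure time and any solvent in the WT cultures, no value is given in the sources used here. Values are TPM, length-corrected shares of transcripts; the unit corrects for transcript length and gives each library the same total, so levels of different genes can be compared and depth is unknown.

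Immediate early genes are transcribed within minutes of a growth factor or stress signal, without new protein synthesis, and their mRNAs are short-lived. Many are switched on by the ERK kinase cascade through serum response factor (SRF) with its ternary complex partners of the ELK family, or through CREB. EGR and KLF proteins are zinc finger transcription factors, NR4A1 is an orphan nuclear receptor, DUSP1 is a nuclear phosphatase that switches off MAP kinases, and IER2 and IER3 are small early response proteins.

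The members did not move as a block: EGR1, EGR3 and IER3 rose with CSE, DUSP1, KLF2, KLF4 and KLF6 fell, and EGR2, NR4A1 and IER2 did not pass the test. The largest fall was the 1.63-fold drop of DUSP1 and the largest rise the 1.35-fold increase of EGR1. In all, 7 of 10 members were called by limma (adjusted p under 0.05 over all genes), against 50.1% of the 12793 genes tested. The 3 rises stand beside 24.5% of all genes called higher and the 4 falls beside 25.6% called lower. The groups did not overlap for 8 of 10 members (57.4% of genes tested), with CSE above WT for 3 (27.5% of genes) and below it for 5 (29.9%). With so many small changes called in this table, a call by itself sets a member little apart, so its size is given each time. The median log2 fold change was -0.0010 over the members and -0.0039 over all genes tested. All 10 members passed the filter on low values, with at least 8.86 TPM in every library. Because the samples are bulk RNA, a change in the share of cells that express a gene and a change in RNA per cell cannot be told apart.

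**Figure D1:**
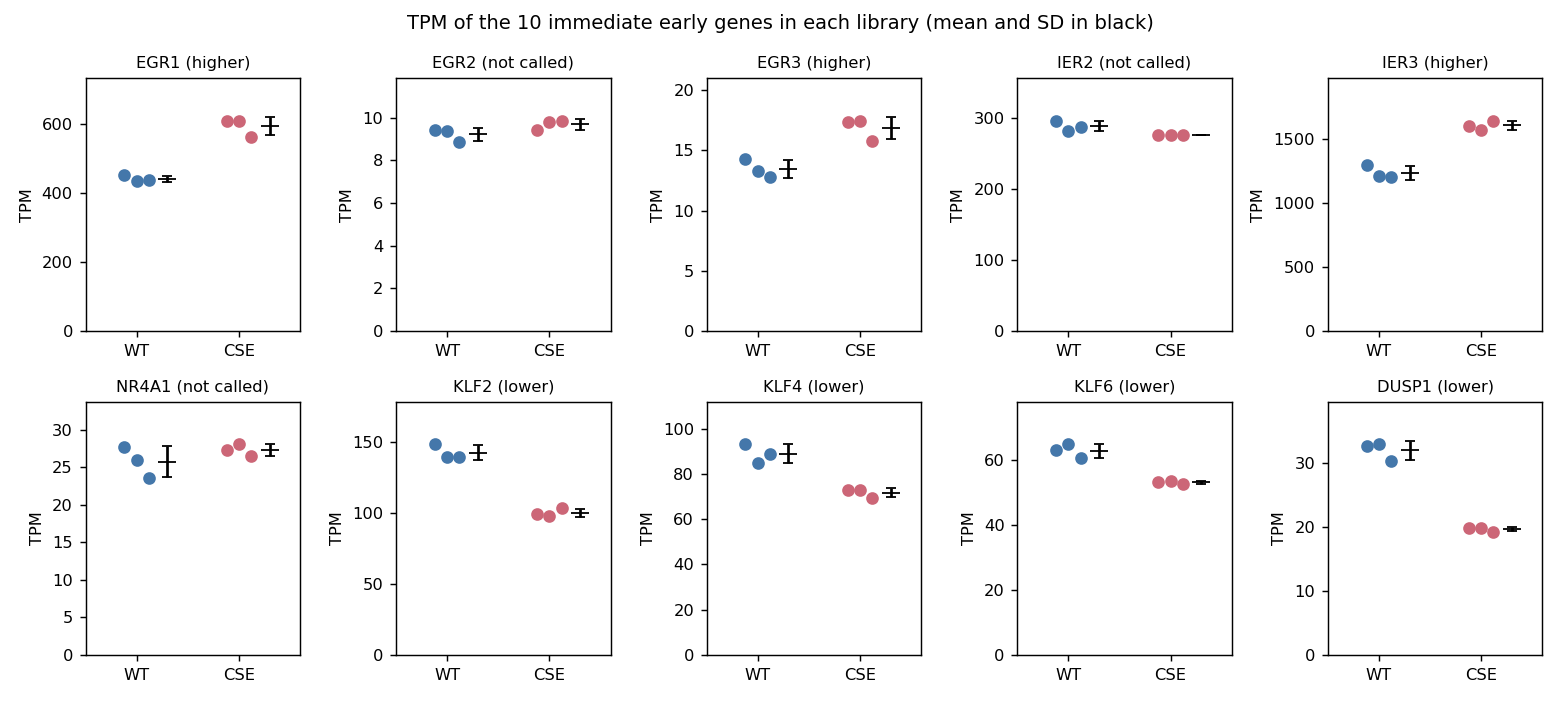
Each panel plots the TPM of 1 member (y axis, from 0) in the 3 WT (blue) and 3 CSE (red) libraries, in order of replicate number, with the mean and SD in black; the word after the symbol is the limma call. EGR1, EGR3 and IER3 sit higher in all 3 CSE libraries, DUSP1, KLF2, KLF4 and KLF6 lower, and the groups overlap for EGR2 and NR4A1.

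The libraries were alike in what they covered. Between 12640 and 12778 genes reached 1 TPM, and mitochondrially encoded genes held 27.0% to 30.2% of the WT libraries and 25.5% to 25.8% of the CSE libraries. Because these shares move with the group, every member was also read after removing those genes and rescaling. CSE replicates 1 and 2 were the closest pair of libraries. Their median absolute log2 difference was 0.035 over 9013 genes of at least 10 TPM, against 0.047 to 0.066 between WT libraries. Of those genes 29 had identical values in this pair, against 15 to 21 in the WT pairs and 11 and 14 in the other CSE pairs. CSE replicate 3 stood further from CSE replicates 1 and 2 (0.077 and 0.083) than any WT library from another. Without CSE replicate 3 the same 3 members were called higher and the same 4 lower. Averaging CSE replicates 1 and 2 into 1 sample left all 7 member calls in place. The epithelial markers KRT8, KRT18, KRT19 and EPCAM were abundant (EPCAM from 306.08 to 359.85 TPM), while the intestinal markers CDX2 (8.29 to 10.54 TPM) and KRT20 (3.75 to 5.68 TPM) were low and VIL1, CDX1 and CEACAM5 were at 0.15 TPM or less. Of 10 markers of leukocytes, endothelium and fibroblasts, 8 did not reach the filter, and PTPRC, CD3E, COL1A2 and DCN were at 0.08 TPM or less. The exceptions were CD68 (11.67 to 17.84 TPM) and COL1A1 (36.95 to 44.84 TPM), both lower with CSE. Summed over the 10 markers the level was 62.25 to 64.30 TPM in WT and 50.03 to 51.76 TPM in CSE, and the part of this shift in the member values was not tested.

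The members span a wide range of expression. In WT the order from the highest to the lowest mean was IER3, EGR1, IER2, KLF2, KLF4, KLF6, DUSP1, NR4A1, EGR3 and EGR2, and no member's range touched that of the next. IER3 was the 66th most abundant gene of the table by its mean over all libraries, and EGR1 the 173rd. In CSE the order was the same but for DUSP1, which lay above NR4A1 in the 3 WT libraries and below it in the 3 CSE libraries. IER3 alone held 52.4% to 53.3% of the summed TPM of the members in WT and 57.0% to 59.1% in CSE. The sum itself was 2291.01 to 2433.96 TPM in WT and 2758.36 to 2786.85 TPM in CSE, and most of it came from IER3 and EGR1, which rose.

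The promoters of members that rose, fell or did not pass were searched for the response elements for which immediate early genes are known. Not every window held one: those of KLF2, KLF6 and NR4A1 had no CArG box and no cAMP response element or half-site. RefSeq start windows (GRCh38.p14, the same assembly version as the GRCh38 named in the submitters' notes) were matched by symbol for 8 of 10 members, in 11 windows; EGR3 and IER3 had none. The motifs searched on both strands of the 250 bases before each start were the CArG box bound by SRF, the cAMP response element TGACGTCA, its half-site TGACG (2 of which overlap in each full element), the EGR-type sites GCGTGGGCG and GCGGGGGCG, and the GC box core GGGCGG. Capitals mark the CArG boxes, half-sites and EGR-type sites in the following windows. NAB2, which encodes a corepressor of EGR proteins, is added as a known EGR target.
EGR1 (rose), chr5:138465229-138465478, plus strand: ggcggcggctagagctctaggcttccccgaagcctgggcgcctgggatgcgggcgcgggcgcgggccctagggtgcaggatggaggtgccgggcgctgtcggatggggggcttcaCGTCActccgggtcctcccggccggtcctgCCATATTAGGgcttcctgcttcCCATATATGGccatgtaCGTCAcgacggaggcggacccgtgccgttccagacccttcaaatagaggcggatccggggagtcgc
NAB2 (rose), chr12:57088864-57089113, plus strand: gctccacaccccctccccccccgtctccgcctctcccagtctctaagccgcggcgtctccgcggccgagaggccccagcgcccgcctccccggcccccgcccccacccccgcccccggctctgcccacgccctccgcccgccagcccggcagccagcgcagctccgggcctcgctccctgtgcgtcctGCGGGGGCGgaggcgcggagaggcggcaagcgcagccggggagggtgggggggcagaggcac
EGR2 (not called), chr10:62816367-62816616, minus strand: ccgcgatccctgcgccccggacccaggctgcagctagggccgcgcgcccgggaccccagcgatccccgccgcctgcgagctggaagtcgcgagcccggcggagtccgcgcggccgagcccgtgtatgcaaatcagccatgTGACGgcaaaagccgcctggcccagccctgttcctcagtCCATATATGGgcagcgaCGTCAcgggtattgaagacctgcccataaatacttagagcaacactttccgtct
DUSP1 (fell), chr5:172771196-172771445, minus strand: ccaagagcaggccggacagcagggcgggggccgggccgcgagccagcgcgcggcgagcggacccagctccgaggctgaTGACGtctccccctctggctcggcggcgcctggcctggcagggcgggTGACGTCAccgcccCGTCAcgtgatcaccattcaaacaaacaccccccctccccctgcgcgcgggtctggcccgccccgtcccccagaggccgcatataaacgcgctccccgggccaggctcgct
KLF2 (fell), chr19:16324576-16324825, plus strand: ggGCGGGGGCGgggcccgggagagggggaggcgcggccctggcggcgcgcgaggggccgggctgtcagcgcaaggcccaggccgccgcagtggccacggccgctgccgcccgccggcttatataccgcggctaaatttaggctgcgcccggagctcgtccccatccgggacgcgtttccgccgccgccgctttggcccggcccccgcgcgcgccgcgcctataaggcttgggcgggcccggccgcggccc

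A CArG box was found in the windows of 2 members, EGR1 and EGR2, and in 1.16% of all 35116 windows of this length. EGR1 held 2 of them, CCATATTAGG and CCATATATGG, between 105 and 74 bases before the start, and EGR2 held CCATATATGG between 71 and 62 bases before the third of its starts. CCATATATGG was shared by EGR1, which rose, and by the third start alone of EGR2, which did not pass the test. Which EGR2 start is used in these cells was not tested. The full element TGACGTCA was found only before DUSP1 among the 8 members with a window, from 125 to 118 bases before the start, and in 1.65% of all windows. The half-site TGACG stood before EGR1 (rose), EGR2 and IER2 (not called), and KLF4 and DUSP1 (fell), and in 21.2% of all windows. GCGGGGGCG stood before KLF2 and KLF6, which fell, and before NAB2, which rose (4.72% of all windows), while GCGTGGGCG was found before none of them (0.72%). GC box cores were found for 7 of the 8 members with a window and in 42.6% of all windows. These are matches of letters and were not tested for binding or against the fold changes.

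**Figure D2:**
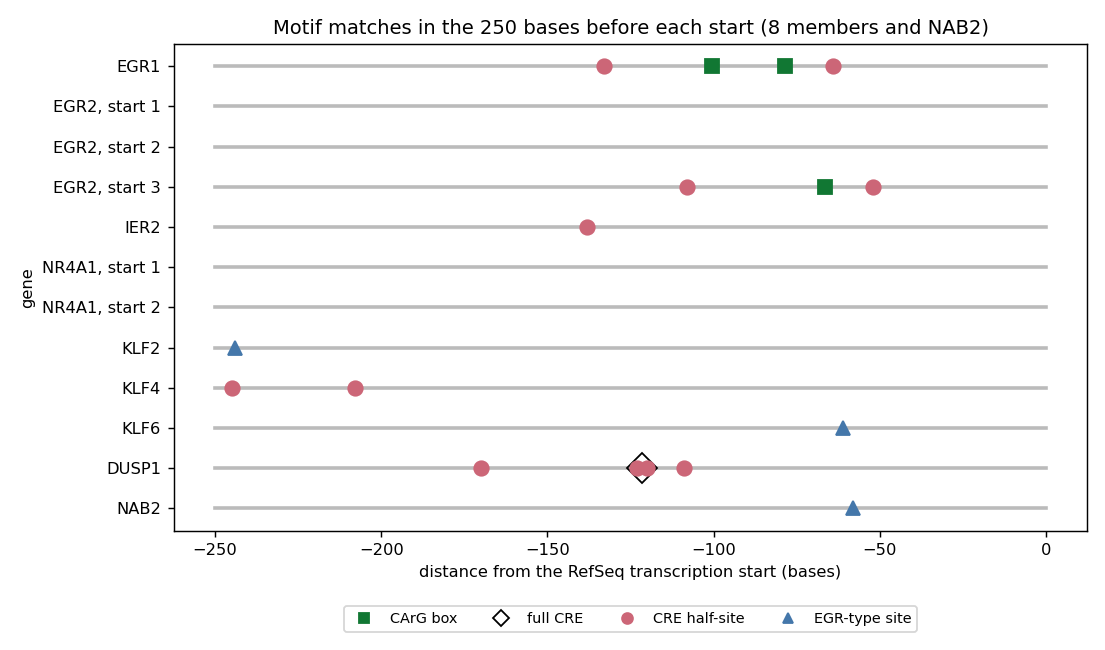
Rows are the RefSeq start windows of 8 members and NAB2, and the x axis is the distance from the start in bases; squares are CArG boxes, filled circles half-sites of the cAMP response element, the open diamond the full element and triangles EGR-type sites. CArG boxes appear in the windows of EGR1 and EGR2, and the full element in that of DUSP1.

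The EGR family was led by EGR1 (ENSG00000120738, chromosome 5, 138465490 to 138469315, plus strand), a transcription factor that carries growth factor signals to the nucleus. EGR1 was at 451.27, 435.69 and 437.98 TPM in WT and at 609.92, 610.42 and 563.21 TPM in CSE. All CSE libraries lay above all WT libraries, with replicate 3 the lowest of the treated group. The mean went from 442 ± 8.41 to 595 ± 27.1 TPM (SD, n = 3 each), which gave limma adjusted p = 1.06e-08 for a log2 fold change of 0.43 with SE 0.0390. A change of at least this size on the log2 scale was seen in 8.07% of all genes tested.

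EGR3 (ENSG00000179388, on chromosome 8), which shares the DNA-binding domain of EGR1 and is often induced after it, stood far lower. Its values were 14.30, 13.29 and 12.76 TPM in WT and 17.32, 17.46 and 15.80 TPM in CSE, again without overlap. The 1.25-fold rise had which gave limma adjusted p = 0.000251 for a log2 fold change of 0.31 with SE 0.0604. EGR2 (ENSG00000122877, chromosome 10, 62811996 to 62919900, minus strand), known for its role in myelinating Schwann cells, was at 9.41, 9.39 and 8.86 TPM in WT and 9.40, 9.77 and 9.86 TPM in CSE. The ranges overlapped and the log2 fold change of 0.063 did not pass (95% interval -0.066 to 0.19, limma adjusted p = 0.415). Its interval allows a change of up to 1.14-fold upward and includes none. EGR4, the other family member, was below 1 TPM in every library and was not tested.

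EGR proteins bind the corepressors NAB1 and NAB2, and NAB2 is itself a target of EGR1 in many cell types. NAB2 was at 109.33, 109.08 and 109.56 TPM in WT and at 155.19, 156.84 and 158.82 TPM in CSE. It rose 1.44-fold (limma adjusted p = 3.35e-10 for a log2 fold change of 0.52 with SE 0.0376), with no overlap. It overlaps STAT6 on the opposite strand, so its value is uncertain where the counting did not use strand. NAB1 had a log2 fold change of -0.12 and did not pass (limma adjusted p = 0.0521). Within a library the ratio of EGR1 to NAB2 is one that no scaling of the library can move. This ratio was 3.99 to 4.13 in WT and 3.55 to 3.93 in CSE, without overlap. Its log2 difference of -0.094 was smaller in size than the change of either gene. The ratio of EGR1 to EGR2 was 46.4 to 49.4 in WT and 57.1 to 64.9 in CSE. Ratios were tested for 5 pairs chosen after the values were seen, each by an exact two-sided permutation test, and each gave p = 0.1 (0.1 after Benjamini-Hochberg adjustment), the smallest that 3 against 3 allows.

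Of 12 textbook targets of EGR and KLF factors, 10 were tested (median log2 fold change -0.038). Among these 10, 2 were higher (24.5% of all genes tested were), 4 lower (25.6% of all) and 4 not called. NAB2 led the rises, and the other was PDGFB, a chain of platelet-derived growth factor (log2 fold change 0.36). F3, the gene of tissue factor, fell from 41.1 to 28.9 TPM (-0.49), the matrix gene FN1 fell by 0.44 on the log2 scale and PDGFA, the other chain of the growth factor, by 0.37.

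KLF2, KLF4 and KLF6 all fell. KLF2 (ENSG00000127528, chromosome 19, 16324817 to 16327874, plus strand), best known as a flow-induced factor of endothelium and a quiescence factor of T cells, was at 148.70, 139.68 and 139.39 TPM in WT and 99.46, 98.22 and 103.46 TPM in CSE. The groups were well apart, and the mean fell 1.42-fold, from 143 ± 5.29 to 100.4 ± 2.74 TPM (limma adjusted p = 1.99e-09 for a log2 fold change of -0.50 with SE 0.0410). A change of this size or more was seen in 5.05% of genes tested. KLF4 (ENSG00000136826, chromosome 9, 107484852 to 107490482, minus strand), a factor of differentiated gut epithelium and of goblet cells, was at 93.12, 84.71 and 89.00 TPM in WT and 72.84, 72.94 and 69.56 TPM in CSE. Its fall was 1.24-fold (limma adjusted p = 6.66e-06 for a log2 fold change of -0.30 with SE 0.0440). KLF6 (ENSG00000067082, chromosome 10, 3775996 to 3785281, minus strand), a broadly expressed factor that has been studied as a growth suppressor, went from 62.98, 64.75 and 60.57 TPM to 53.12, 53.56 and 52.62 TPM. Its groups did not overlap either, and the fall was 1.18-fold (-0.24, SE 0.0432, limma adjusted p = 0.000109), a size that 28.1% of genes tested reached.

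The rest of the KLF family was mixed. Of 18 KLF genes in the table, members included, 15 were tested, with a median log2 fold change of -0.13. Among these 15, 2 were higher (24.5% of all genes tested were), 7 lower (25.6% of all) and 6 not called. The 7 lower genes include the members KLF2, KLF4 and KLF6, beside KLF3, KLF7, KLF15 and KLF16. KLF7 fell furthest, from 29.51, 28.24 and 27.74 TPM to 17.05, 17.25 and 14.51 TPM (1.75-fold, log2 fold change -0.78, limma adjusted p = 1.02e-09). KLF15, a regulator of glucose and amino acid metabolism, fell from 7.88 to 4.80 TPM (-0.61). Against them, KLF10, an early response gene to TGF-beta, rose from 87.70, 81.54 and 79.63 TPM to 118.34, 116.06 and 110.84 TPM (0.47, limma adjusted p = 1.71e-08). KLF2 was the more abundant of KLF2 and KLF10 in WT and KLF10 in CSE: the ratio of KLF10 to KLF2 was 0.571 to 0.590 in WT and 1.07 to 1.19 in CSE. KLF5, the factor of proliferating crypt cells, was at 70.20 to 74.24 TPM in WT and 64.27 to 72.18 TPM in CSE and did not pass (limma adjusted p = 0.312). Summed over the family, the level was 671.14 to 708.20 TPM in WT and 598.01 to 627.48 TPM in CSE.

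DUSP1 (ENSG00000120129, chromosome 5, 172768090 to 172771195, minus strand) showed the largest change of any member. This phosphatase acts mainly on the stress kinases p38 and JNK and also on ERK. It was at 32.60, 32.87 and 30.27 TPM in WT and at 19.75, 19.86 and 19.21 TPM in CSE. Every treated library lay below every WT library, and the mean fell from 31.9 ± 1.43 to 19.6 ± 0.348 TPM (limma adjusted p = 6.41e-10 for a log2 fold change of -0.67 with SE 0.0511). Only 1.76% of all genes tested changed by as much on the log2 scale. The ratio of EGR1 to DUSP1 was 13.3 to 14.5 in WT and 29.3 to 30.9 in CSE.

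The 3 other inducible nuclear phosphatases of the family were also lower. DUSP4, which acts on ERK and other MAP kinases, went from 205 to 171 TPM (log2 fold change -0.26, limma adjusted p = 2.08e-05), and DUSP5, which is selective for ERK, from 439.9 to 402 TPM (-0.13, limma adjusted p = 0.00558). DUSP2 changed least in TPM, from 22.7 to 20.3 TPM (-0.15, limma adjusted p = 0.0300). Thus 4 of 4, DUSP1 included, were lower, with sizes from 0.13 to 0.67 on the log2 scale. Of all genes tested, 25.6% were called lower.

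Against a change of 1.2-fold in place of no change, a test added after the data were seen (limma treat), 6.96% of all genes passed. EGR1 was the only member that passed as higher (3.37% of genes did), and DUSP1 and KLF2 passed as lower (3.6% of genes did). IER3 missed narrowly (limma adjusted p = 0.0513).

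**Figure D3:**
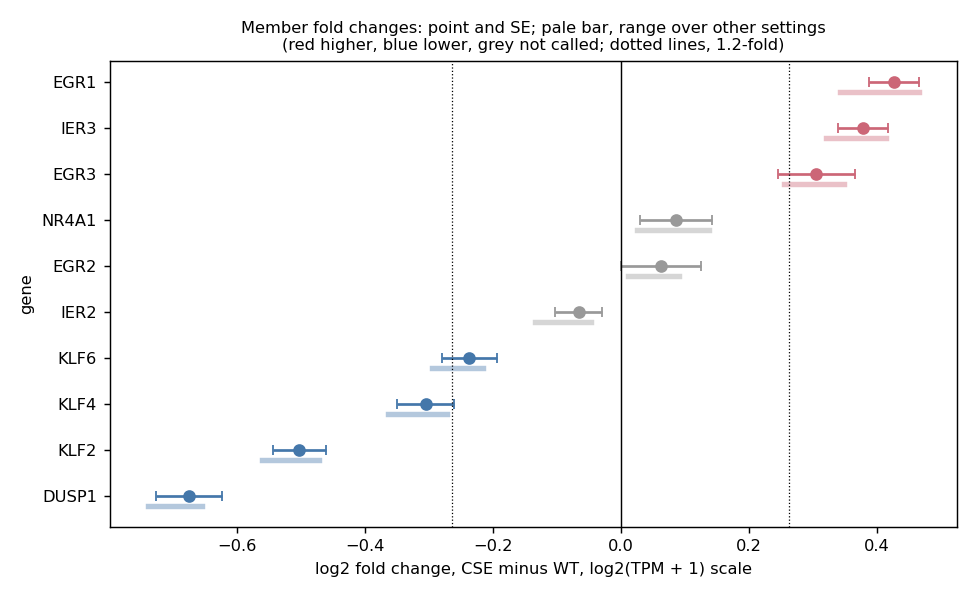
Points are the log2 fold change of each member (x axis, log2(TPM + 1) scale, positive where CSE was higher) with its SE; the pale bar below each point is the range over 16 other settings, and the dotted lines mark a 1.2-fold change. DUSP1 (-0.67) and KLF2 (-0.50) lie clear of the lower line and EGR1 (0.43) of the upper line. The points of IER3 (0.38), EGR3 (0.31) and KLF4 (-0.30) also lie outside the lines. EGR2, NR4A1 and IER2, which were not called, and KLF6 (-0.24), which was called lower, lie between them.

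IER3 (ENSG00000137331, chromosome 6, 30743199 to 30744554, minus strand), a small protein that modulates apoptosis and ERK signalling, was the most abundant member. It was at 1297.67, 1207.84 and 1201.03 TPM in WT and 1602.15, 1572.56 and 1642.32 TPM in CSE, without overlap. It rose 1.30-fold (limma adjusted p = 6.51e-08 for a log2 fold change of 0.38 with SE 0.0390), a size reached by 11.0% of genes tested. IER2 (ENSG00000160888, chromosome 19, 13150415 to 13154908, plus strand), a nuclear early response protein, was at 296.25, 281.60 and 287.62 TPM in WT and 275.54, 275.51 and 275.78 TPM in CSE. Its groups did not overlap, but the log2 fold change of -0.065 did not pass (95% interval -0.14 to 0.010, limma adjusted p = 0.142). It passed as lower under quantile normalization (-0.13, limma adjusted p = 0.000899) and without mitochondrially encoded genes (-0.12, limma adjusted p = 0.00222). The ratio of IER3 to IER2 was 4.18 to 4.38 in WT and 5.71 to 5.96 in CSE.

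IER5L and IER5, relatives of IER2, moved in opposite directions. IER5L rose from 202.66, 185.76 and 188.28 TPM to 271.54, 272.74 and 292.10 TPM (log2 fold change 0.53, limma adjusted p = 1.17e-09). IER5, an early response gene that feeds into heat shock factor activity, fell from 83.05, 81.44 and 79.06 TPM to 62.38, 61.84 and 68.86 TPM (-0.33, limma adjusted p = 4.03e-06).

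NR4A1 (ENSG00000123358, chromosome 12, 52022832 to 52059507, plus strand), the orphan receptor also called Nur77, was at 27.66, 25.99 and 23.53 TPM in WT and 27.35, 28.06 and 26.54 TPM in CSE. The WT libraries spread more than the treated ones and the ranges overlapped. The log2 fold change of 0.086 did not pass (95% interval -0.031 to 0.20, limma adjusted p = 0.211). NR4A2, its closest relative in this list, rose from 10.47, 10.41 and 11.34 TPM to 13.74, 14.05 and 12.81 TPM (0.31, limma adjusted p = 0.000272), and NR4A3, near 1 TPM, did not pass (-0.049, limma adjusted p = 0.716). Over all 22 family relatives of the members, 19 were tested, with a median log2 fold change of -0.059. Among these 19, 4 were higher (24.5% of all genes tested were), 8 lower (25.6% of all) and 7 not called.

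Other early response genes outside AP-1 were also called in both directions. Of 29 genes, 11 were higher (24.5% of all genes tested were), 12 lower (25.6% of all) and 6 not called (median log2 fold change -0.0055). The largest falls were those of CCN2 (44.9 to 24.1 TPM, -0.87) and CCN1 (82.4 to 48.0 TPM, -0.77), matricellular proteins and known targets of YAP and SRF, and of the small GTPase gene RHOB (283 to 170.3 TPM, -0.73). PPP1R15A, which encodes the phosphatase subunit GADD34 that reverses the block of translation in stress, rose from 64.3 to 98.7 TPM (0.61).

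Among 20 upstream regulators 2 were higher (24.5% of all genes tested were), 8 lower (25.6% of all) and 10 not called. Their median log2 fold change was -0.093. ELK3, an SRF partner that can act as a repressor, fell from 112 to 76.5 TPM (-0.54, limma adjusted p = 1.34e-09), and ELK4, another partner, fell by 0.30 on the log2 scale. The RSK kinase genes RPS6KA2 (-0.37) and RPS6KA1 (-0.26) were lower as well. SRF itself went from 49.6 to 45.0 TPM (-0.14, limma adjusted p = 0.0151). The 2 called higher were ELK1, also an SRF partner (0.14, limma adjusted p = 0.0205), and the kinase gene MAPK3 (0.14, limma adjusted p = 0.0199). For both of these the ranges of the groups overlapped. These are mRNA levels and say nothing of kinase activity or phosphorylation.

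Factors that set mRNA lifetime were also read, since early mRNAs carry AU-rich elements. The list of EGR corepressors and mRNA decay factors held 10 genes (median 0.0071). Among them 4 were higher (24.5% of all genes tested were), 3 lower (25.6% of all) and 3 not called. The lists overlap: ZFP36, ZFP36L1 and ZFP36L2 were also counted among the other early response genes, and NAB2 among the textbook targets. ZFP36, which binds AU-rich elements and promotes decay, fell from 223 to 168 TPM (-0.40, limma adjusted p = 1.67e-08), and its relative ZFP36L1 from 265 to 199.6 TPM (-0.41). ZFP36L2, the third of this family, rose by a log2 fold change of 0.23 (limma adjusted p = 0.000164).

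The AP-1 subunits, read for contrast, had 1 of 7 genes higher, 4 lower and 2 not called (median -0.27). Of all genes tested, 24.5% were called higher and 25.6% lower. JUN fell to 46.7 from 125 TPM (-1.40) and FOS to 59.9 from 88.4 TPM (-0.55), while JUNB was higher (0.17). FOS and EGR1, which share regulation through SRF in textbook accounts, were thus called in opposite directions.

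**Figure D4:**
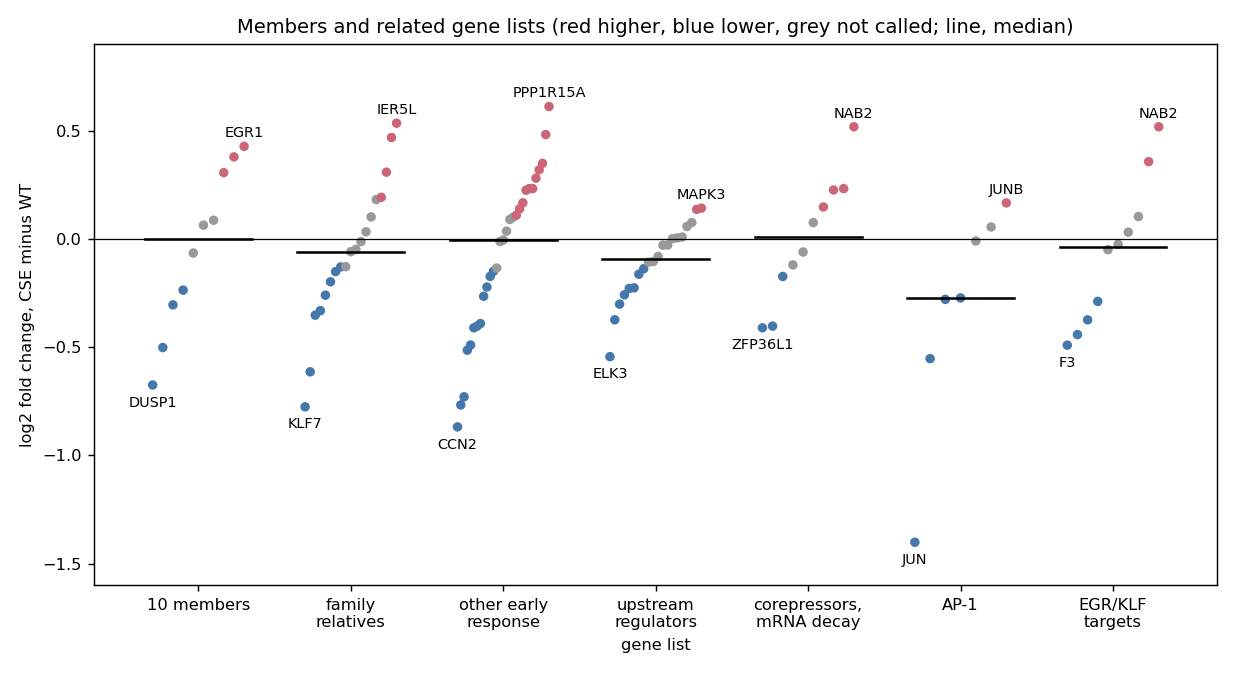
Each point is 1 tested gene, grouped by list (x axis) and placed by its log2 fold change, CSE minus WT (y axis); red is called higher, blue lower and grey not called, and black lines are medians. Each list plotted holds called genes of both directions, and its highest and lowest gene is named; the cell type marker lists are not plotted.

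**Figure D5:**
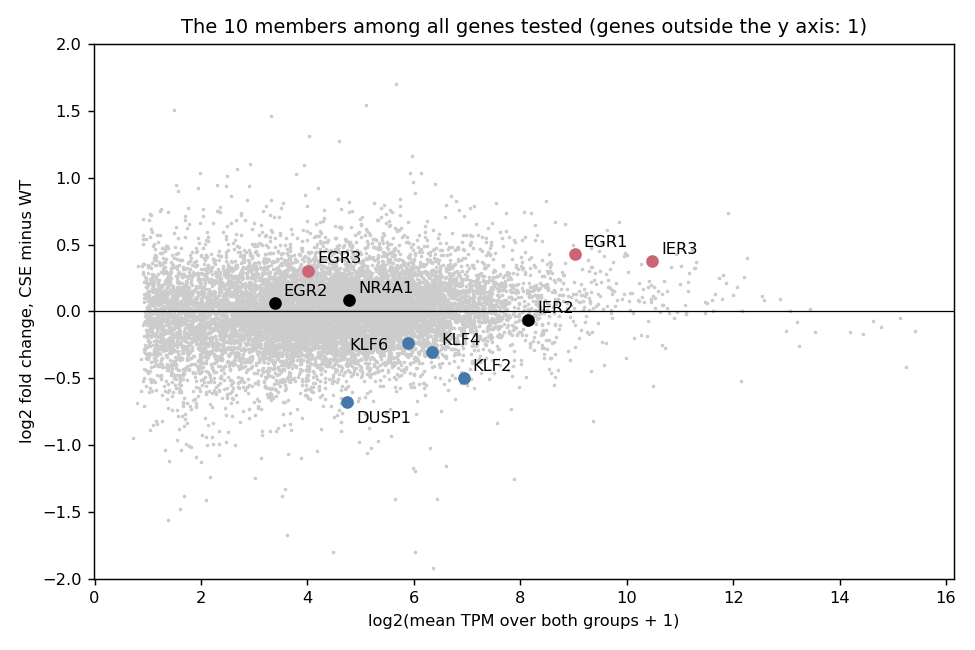
Grey points are the 12793 genes tested, with mean expression on the x axis (log2 of mean TPM + 1) and the log2 fold change on the y axis; coloured points are the members (red higher, blue lower, black not called). EGR1, IER3, KLF2 and DUSP1 lie toward the edge of the cloud, and the other members lie within it; 1 gene falls outside the axis.

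The genes whose profile over the 6 libraries lay nearest to that of a member were sought among 8992 genes of at least 10 TPM, by the Euclidean distance between centred log2(TPM + 1) values. RSF1 (distance 0.035), SMAD1 (0.036) and MCCC2 (0.040) were nearest to EGR1, with log2 fold changes of 0.44, 0.42 and 0.43. ANXA3 (0.042), RHOB (0.089) and SULF2 (0.092) were nearest to DUSP1, with -0.65, -0.73 and -0.68. The list is a description of likeness in these libraries and carries no test.

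Most members share a compact gene structure. In GENCODE 29 the member genes span a median of 5062.5 bases against 31671.5 for 12744 tested genes with a coding transcript, and 8 of 10 span at most 10000 bases against 19.7% of all. The exceptions are EGR2 (107905 bases, counting distant starts) and NR4A1 (36676 bases). The median number of exons in the chosen transcript was 2.5 against 9, from 1 in IER2 to 8 in NR4A1. At least 1 ATTTA pentamer, the core of AU-rich elements, was found in the 3′ UTR of 9 of 10 members against 67.5% of all genes, and 3 or more in 6 members against 40.3%. IER3 (rose) and KLF6 (fell) held 6 each, EGR1 (rose) held 1 and DUSP1 (fell) 4. The number of pentamers was not tested against the fold changes. EGR3, IER2, IER3, NR4A1 and DUSP1 each overlap 1 annotated noncoding gene on the opposite strand, whose reads cannot be separated where the counting did not use strand.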

How the data were processed

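Poly(A) RNA-seq of 3 WT and 3 CSE-treated HCT116 samples was used, grouped by the treatment label. The authors deposited TPM with 2 decimals for 20263 genes; the submitters' processing notes list HISAT2 2.0, bedtools 2.26.0, Trimmomatic 0.36, FastQC 0.11.2 and GRCh38, with no roles. For the counting program, annotation and strand setting nothing is given in the sources used here. TPM keeps no depth, so no counting interval or count model was used; 0 sample columns were left unmapped. Symbols matched 20148 genes.

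Genes with at least 1 TPM in at least 3 libraries (12793) were transformed to log2(TPM + 1), which understates changes of low genes, and compared with limma 3.58.1 in R 4.3.3 (empirical Bayes with mean-variance trend, no covariate, two-sided, Benjamini-Hochberg at 0.05 over all genes). No label names separate cultures, so a p-value reflects only the spread of these samples, which may be technical. Members and gene lists were chosen with earlier results of these data known. The genes named are the members, the up to 4 called genes with the largest change in each list, and the 3 nearest profiles for EGR1 and DUSP1; other genes named were chosen after their values were seen. Gene models came from GENCODE 29 and start windows from RefSeq. ATTTA was counted in the longest principal coding transcript.

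Alternatives changed the pseudocount (0.1), the filter (none, or a mean of 5 TPM), the scaling, the variance prior, the replicate block and each sample left out. Added after seeing the data were limma's treat test against 1.2-fold and the averaging of CSE replicates 1 and 2. The fit was tested on simulated data with 50 genes changed at each size. It called 2% of 1.1-fold, 72% of 1.25-fold and 94% of 1.5-fold changes. Far fewer genes were changed there than were called in these data, so the shares may differ here.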

Additional observations from a re-analysis of the deposited data

How the results depend on the processing

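In 16 settings other than the treat test, the same 3 members were called higher, and the same 4 were called lower, joined by IER2 in 2 of them. EGR1 ranged from 0.34 to 0.47, IER3 from 0.32 to 0.41, EGR3 from 0.26 to 0.35, DUSP1 from -0.74 to -0.65, KLF2 from -0.56 to -0.47, KLF4 from -0.36 to -0.27 and KLF6 from -0.30 to -0.21 (log2 fold change); no member changed sign, and EGR2 and NR4A1 passed in none of them. Over all genes, calls ranged from 2353 to 3560 higher and from 2557 to 4548 lower. Without mitochondrially encoded genes 34.1% of calls were higher, against 48.9% with TPM as deposited. Tested against a 1.2-fold change with limma's treat, 431 genes were higher and 460 lower (6.96% of genes tested), with 1 member higher (EGR1, adjusted p = 0.00414) and 2 lower (DUSP1, 2.49e-06, and KLF2, 0.000167). IER3 missed that threshold (0.0513), as did EGR3, KLF4 and KLF6 (1 each). This test asks for a larger change by its construction. With the replicate block 3188 genes were called higher and 3349 lower, with 3 and 4 members. Same-numbered samples did not deviate together (r across genes of their deviations from the group means -0.071, 0.015 and -0.088). These values gave no sign of pairing by number, though a weak shared effect could go unseen. The depth is unknown, and the 95% intervals of EGR2 and NR4A1 include changes in both directions.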
